A study of Homo sapiens with 6 samples.

Results

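Baseline gene expression was compared between 2 human lung adenocarcinoma cell lines, HCC827 and H1975, each kept for 48 h with the solvent DMSO and no drug. The comparison uses 2 of the 6 libraries of the study, 1 HCC827 library and 1 H1975 library, chosen by their labelled line and treatment. The DMSO library of another line, A549, is given as a further value beside named genes. Libraries of cells given the study's test compound were not used. HCC827 carries an activating in-frame deletion in the kinase domain of the epidermal growth factor receptor, EGFR. H1975 carries an activating substitution in that domain together with a gatekeeper substitution that lowers the binding of early EGFR inhibitors. A549 has unmutated EGFR. The labels give the genotype of all 3 lines as WT and say nothing of these mutations, so the mutations are stated here from general knowledge. Whether more than 1 culture went into a library is not stated.

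With 1 library a line there is no replicate check and no test was possible. Each difference is given as the log2 fold of scaled counts per 1000000 counts (CPM), positive where HCC827 was higher. Its 95% interval is an exact binomial (Clopper-Pearson) interval of the count ratio and covers counting error only. Because several reads can come from the same molecule, it may fall short even of that. A fold describes these 2 libraries, and culture-to-culture variation was not measured. The libraries held 126840915 counts in HCC827 and 104648304 in H1975, against 110445983 in A549, with at least 1 count for 27874, 27163 and 26979 genes. A gene was considered when the higher of the 2 libraries reached 5 CPM, which left 12609 genes, 11605 of them protein-coding. Listed genes under this level in both lines are outside the counts below, and a gene silent in 1 line enters only through the other.

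EGFR passes growth signals from ligands such as amphiregulin and epiregulin to the RAS-ERK and PI3K cascades, and forms dimers with ERBB2 and ERBB3. In lung adenocarcinoma, mutant EGFR drives growth. Lung adenocarcinomas also differ in how far they keep the programme of the alveolar type II cell, the surfactant-making cell of the air sac that depends on the transcription factor NKX2-1. They differ further in how far they take on gastrointestinal-type, mesenchymal or interferon-induced gene expression.

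Of the genes considered, 1748 were at least 2-fold higher in HCC827 (13.9%) and 1629 were at least 2-fold higher in H1975 (12.9%), 26.8% in all. The shares of 13.9% and 12.9% are the background of every list count below, also where they are not repeated. At 4-fold the counts were 691 and 597, at 10-fold 416 and 299, and at 100-fold 203 and 98. The median log2 fold of all genes considered was 0.06, and the 0.05 and 0.95 quantiles were -1.93 and 2.16. Against A549, 33.3% of 12805 genes differed at least 2-fold in HCC827 and 33.2% of 12829 in H1975. Across 13326 genes with at least 5 CPM in any of the 3 libraries, Pearson r of log2(CPM + 1) was 0.818 between HCC827 and H1975, 0.695 between HCC827 and A549 and 0.677 between H1975 and A549. These correlations are across genes, which are not independent replicates.

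**Figure D1:**
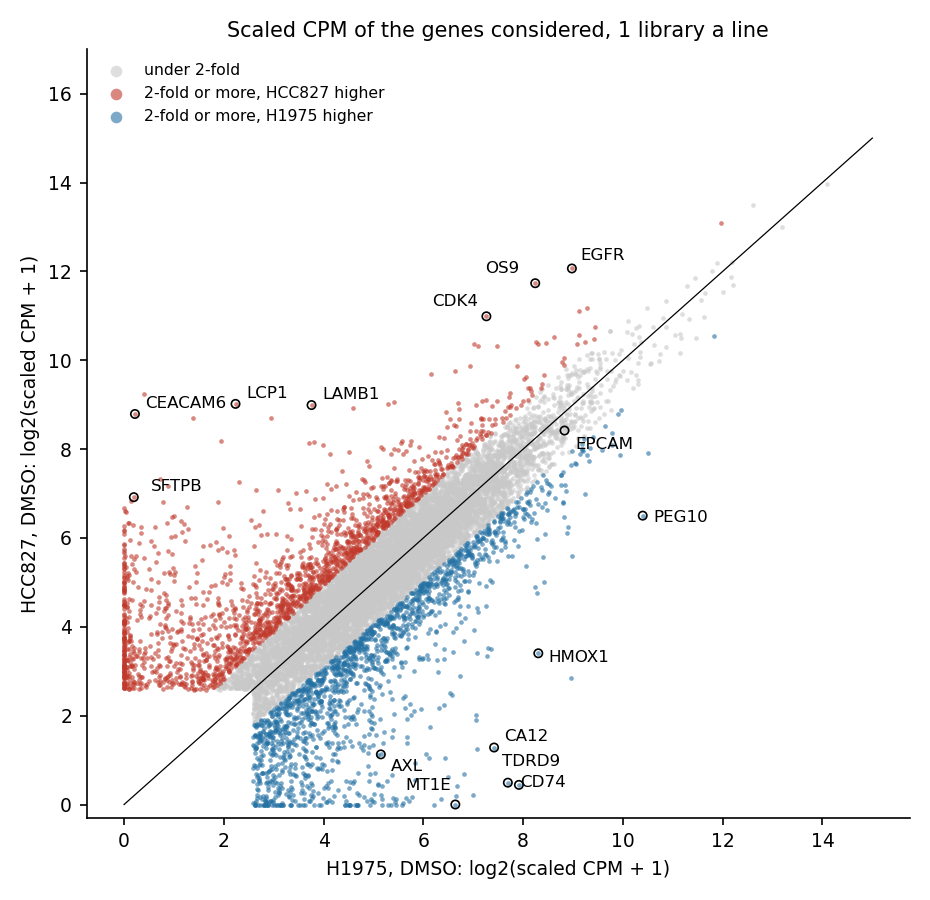
Scaled CPM of each gene considered in H1975 (horizontal axis) and HCC827 (vertical axis) on a log2(CPM + 1) scale, 1 library a line; XIST and Y-linked genes are not drawn, and colours mark genes at 2-fold or more. EGFR, OS9 and CDK4 stand far above the diagonal among abundant genes, and PEG10 and HMOX1 far below it.

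Folds varied with base composition. Across 11599 protein-coding genes the fold and the GC content of the transcript had a Spearman rho of -0.25, as a description across genes, and the fold and transcript length one of 0.08. The GC class of 10 with the lowest content (median 36.9%) had a median fold of 0.35, and the class with the highest (63.9%) one of -0.33. How far base composition moved any single result was not tested beyond centring folds within 10 GC classes, which is given where it changes a statement.

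Both lines expressed epithelial markers and the lung lineage factor NKX2-1. CDH1, the E-cadherin of epithelial junctions, was at 475 CPM in HCC827, 675 in H1975 and 241 in A549, and EPCAM, an epithelial adhesion molecule, was at 341, 454 and 3.07 CPM. NKX2-1 was at 290 CPM in HCC827 and 160 in H1975 (log2 fold 0.86, 0.83 to 0.88), and at 0.0946 in A549. Of the defining immune markers, PTPRC and CD3E were at 0 counts in all 3 libraries, which allows up to 0.0239 CPM in HCC827 and 0.0272 in H1975. The summed level of the 18 immune markers was 609 CPM in HCC827, 175 in H1975 and 24.2 in A549. Most of it came from LCP1, an actin-bundling protein also made by many carcinomas, at 517 CPM in HCC827, 3.70 in H1975 and 0.114 in A549, and from CD68, a lysosomal protein, at 81.8 and 91.9 CPM. CD79A, a B-cell receptor component, was at 1.62 CPM in HCC827 and 35.4 in H1975, and CSF1R, the receptor for macrophage growth factor, at 5.91 and 38.1. The 18 fibroblast and endothelial markers summed to 34.0, 28.7 and 10.6 CPM, with the proteoglycan gene LUM at 5.11 CPM in HCC827 and 0 counts in H1975. The neuroendocrine genes CHGA and INSM1 were at 0 counts in HCC827 and H1975. The 17 neuroendocrine and neuronal genes listed summed to 145 CPM in HCC827, 270 in H1975 and 616 in A549. Of the 17, 10 were at 0 counts in HCC827 and 10 in H1975. Only 2 were considered, 1 of them at least 2-fold higher in H1975 (0 with GC centring).

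EGFR (ENSG00000146648, GRCh38 chromosome 7, 55019021 to 55211628, plus strand) had 538373 counts in HCC827, 55530 in H1975 and 38826 in A549. That is 4285, 503 and 367 CPM. HCC827 stood 8.52-fold above H1975 (log2 fold 3.09, 3.08 to 3.10), while H1975 and A549 lay close together. The gene took 0.424% of all HCC827 counts (exact 95% interval 0.423 to 0.426), 0.0531% of H1975 counts (0.0526 to 0.0535) and 0.0352% of A549 counts (0.0348 to 0.0355). It ranked 7 by counts in HCC827, 191 in H1975 and 371 in A549. In these bulk libraries more cells expressing a gene and more RNA per cell cannot be told apart, and total EGFR counts do not separate mutant from unmutated transcripts.

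Of the 13 considered genes among 17 ERBB receptors, ligands and regulators, 6 were at least 2-fold higher in HCC827 and 1 in H1975, with a median of 0.72 beside 0.06 for all genes. Several ligands went with the receptor. AREG, which encodes amphiregulin, was at 126 CPM in HCC827, 28.2 in H1975 and 18.3 in A549 (2.16). EREG, for epiregulin, was at 156, 39.6 and 27.6 CPM (1.98). BTC, for betacellulin, was at 18.4, 5.45 and 2.94 CPM (1.75), and EGF itself at 8.78, 1.41 and 1.32 CPM (2.62). EPGN, for epigen, was not among the genes considered, at 3.95 and 0.0725 CPM. TGFA, for transforming growth factor alpha, was the ligand in the opposite direction, at 6.98 CPM in HCC827, 54.8 in H1975 and 29.8 in A549 (-2.97, -3.08 to -2.87). The ligand genes HBEGF (-0.46) and NRG1 (0.22) were under 2-fold.

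The partner receptors were nearer each other. ERBB2 was at 182 CPM in HCC827, 266 in H1975 and 101 in A549 (-0.55), and ERBB3 at 136, 169 and 10.5 CPM (-0.31). Feedback inhibitors of EGFR were split, with LRIG1 higher in HCC827 (14.9 against 3.75 CPM, 1.98) and ERRFI1 under 2-fold (216 against 282 CPM, -0.39). ERBB4 was at 0.231 CPM in HCC827 and 0 counts in H1975.

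Output of the ERK cascade did not follow the receptor as a group. Of 20 listed genes, all considered, 5 were at least 2-fold higher in HCC827 and 5 in H1975, with a median of 0.06, the same as that of all genes considered. DUSP6, a phosphatase that inactivates ERK, was at 157 CPM in HCC827, 27.2 in H1975 and 12.2 in A549 (2.53), and the feedback inhibitor SPRY1 at 18.7, 5.16 and 2.10 CPM (1.85). CCND1, for cyclin D1, was at 374, 165 and 188 CPM (1.18). In the other direction were FOSL1, an AP-1 subunit, at 87.5 CPM in HCC827, 256 in H1975 and 13.6 in A549 (-1.55), the phosphatases DUSP4 (-1.45) and DUSP5 (-1.50), the cytokine LIF (-1.55) and PHLDA1 (-1.16). MYC (0.59), EGR1 (0.32), SPRY2 (0.33), SPRY4 (-0.11), ETV4 (0.24) and ETV5 (-0.18) were under 2-fold.

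Among other receptor tyrosine kinases and their ligands, 5 of 19 considered were at least 2-fold higher in HCC827 and 6 in H1975, with a median of 0.07. Across all genes considered these shares were 13.9% and 12.9%. MET, the receptor of hepatocyte growth factor, was at 1150 CPM in HCC827, 657 in H1975 and 334 in A549 (0.81, 0.79 to 0.82), under 2-fold. AXL, a kinase often found in mesenchymal-type tumour cells, was at 1.19 CPM in HCC827, 34.4 in H1975 and 137 in A549 (-4.84, -5.11 to -4.62). ROS1 was at 19.7 CPM in HCC827 and 0.254 in H1975 (6.19, 5.75 to 6.88), and the ephrin receptor EPHA4 at 18.5 and 2.42 CPM (2.92). FGF2, a fibroblast growth factor, was at 8.14 CPM in HCC827 and 0 counts in H1975. Against the floor of 3 counts, used below for every gene at 0, it was at least 300-fold higher in HCC827. FGFR1 (-1.72), the RON kinase gene MST1R (-1.58), EPHB4 (-1.32) and TYRO3 (-1.18) were higher in H1975.

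**Figure D2:**
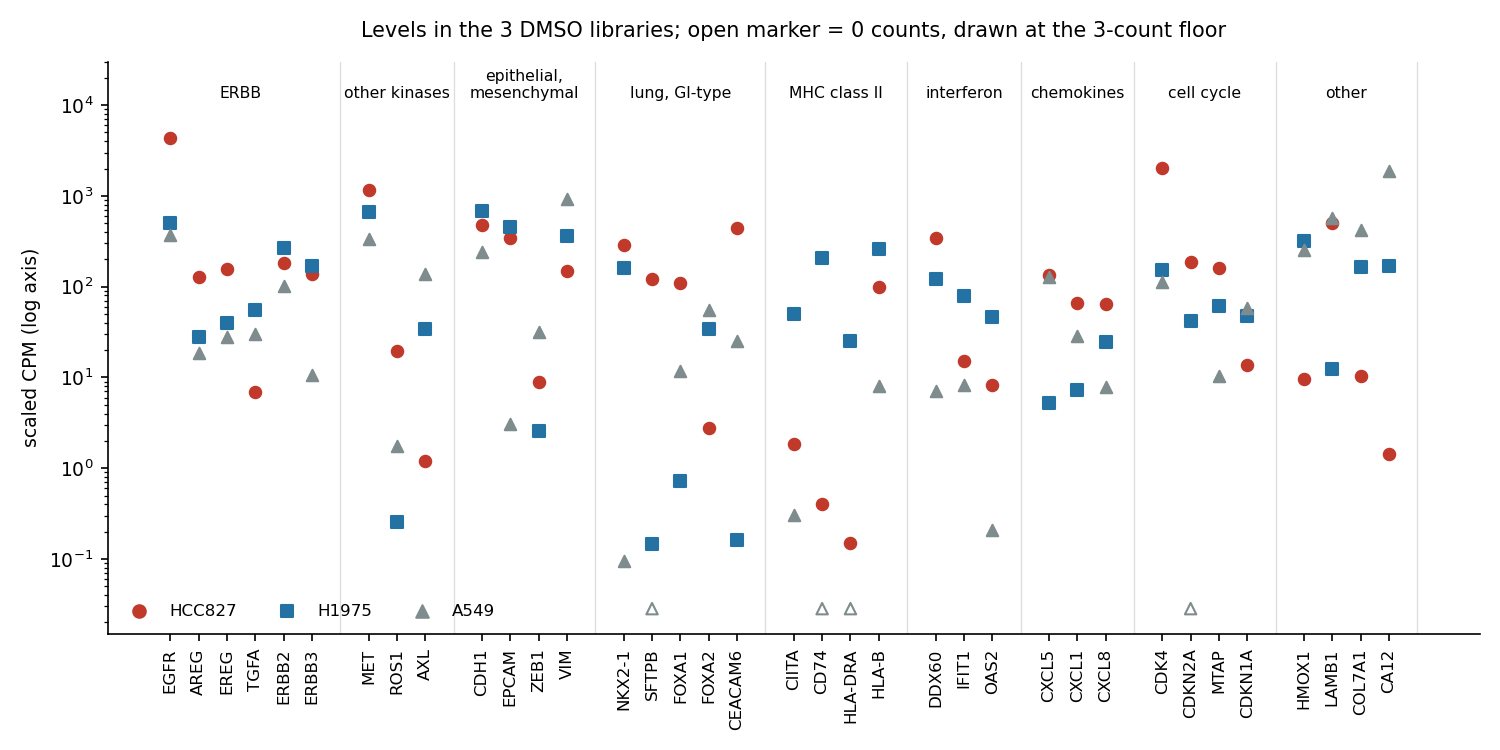
Scaled CPM of named genes (log axis) in the DMSO libraries of HCC827 (circles), H1975 (squares) and A549 (triangles), grouped by role; an open marker is a gene at 0 counts, drawn at the 3-count floor. EGFR and CDK4 are set apart by HCC827 alone, AXL, CIITA and CD74 are high in H1975 and low in HCC827, and ERBB2, ERBB3, CDH1 and EPCAM lie close in HCC827 and H1975.

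The higher level around EGFR extended over its neighbours on chromosome 7. Within 5 Mb of the EGFR start 16 genes were considered, 12 of them at least 2-fold higher in HCC827 and 0 in H1975, with a median of 1.88. From SEC61G to CHCHD2 all 11 genes considered in a row were higher in HCC827, by 1.03 to 4.39 log2 units. SEC61G, a subunit of the protein channel of the endoplasmic reticulum, was at 515 CPM in HCC827, 38.01 in H1975 and 21.8 in A549 (3.76). LANCL2, the next gene considered beyond EGFR, was at 482, 23.1 and 20.1 CPM (4.39), and VOPP1, a vesicular protein gene, at 929, 121 and 92.6 CPM (2.94). The zinc finger gene ZNF713 came next, at 28.3, 4.07 and 3.07 CPM (2.79).

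Farther out the folds were smaller. CCT6A, a subunit of the cytosolic chaperonin, was at 1480 CPM in HCC827, 390 in H1975 and 374 in A549 (1.93). PSPH, the last enzyme of serine synthesis, was at 120, 54.3 and 41.3 CPM (1.14), SUMF2 at 321, 140 and 110 CPM (1.20) and the mitochondrial protein gene CHCHD2 at 435, 214 and 122 CPM (1.03). With library totals as the only scaling CHCHD2 was at 0.94, under 2-fold. NIPSNAP2 (1.83) and MRPS17 (2.22) overlap each other, so their reads may be shared. On the other side, LINC01446, a long non-coding RNA gene, was at 12.2 CPM in HCC827 and 0 counts in H1975 and A549, at least 449-fold higher. Beyond it COBL (-0.95), GRB10 (-0.88) and FIGNL1 (-0.58) were under 2-fold and in the opposite direction. DNA copy number was not measured.

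Another cluster of large folds lay around CDK4 (ENSG00000135446, chromosome 12, 57747727 to 57756013, minus strand), the cyclin D-dependent kinase that phosphorylates RB. This neighbourhood was chosen after its values were seen. CDK4 was at 2032 CPM in HCC827, 153 in H1975 and 114 in A549 (3.73, 3.71 to 3.76). OS9, an endoplasmic reticulum lectin, was at 3404, 302 and 255 CPM (3.50), and PIP4K2C, a lipid kinase, at 1273, 136 and 54.0 CPM (3.22). TSPAN31 (3.48) and MARCHF9 (1.70) overlap CDK4, and without a stated strand setting their reads cannot be told apart from it. HCC827 was the high library for these 5 genes, and H1975 and A549 were near each other for OS9 and CDK4.

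The cluster was interrupted. Between PIP4K2C and OS9 lay DTX3 (2.94 CPM in HCC827, 21.9 in H1975, -2.89), ARHGEF25 (5.07 and 11.9, -1.22) and the ganglioside synthase gene B4GALNT1 (1.23 and 28.7, -4.53), all higher in H1975. AGAP2-AS1, between OS9 and CDK4, was at 0.21. Just beyond MARCHF9, METTL1 (-0.18), EEF1AKMT3 (0.20) and TSFM (-0.18) were under 2-fold. Of all 21 genes considered within 500 kb of the CDK4 start, 5 were at least 2-fold higher in HCC827 and 6 in H1975, with a median of -0.53.

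**Figure D3:**
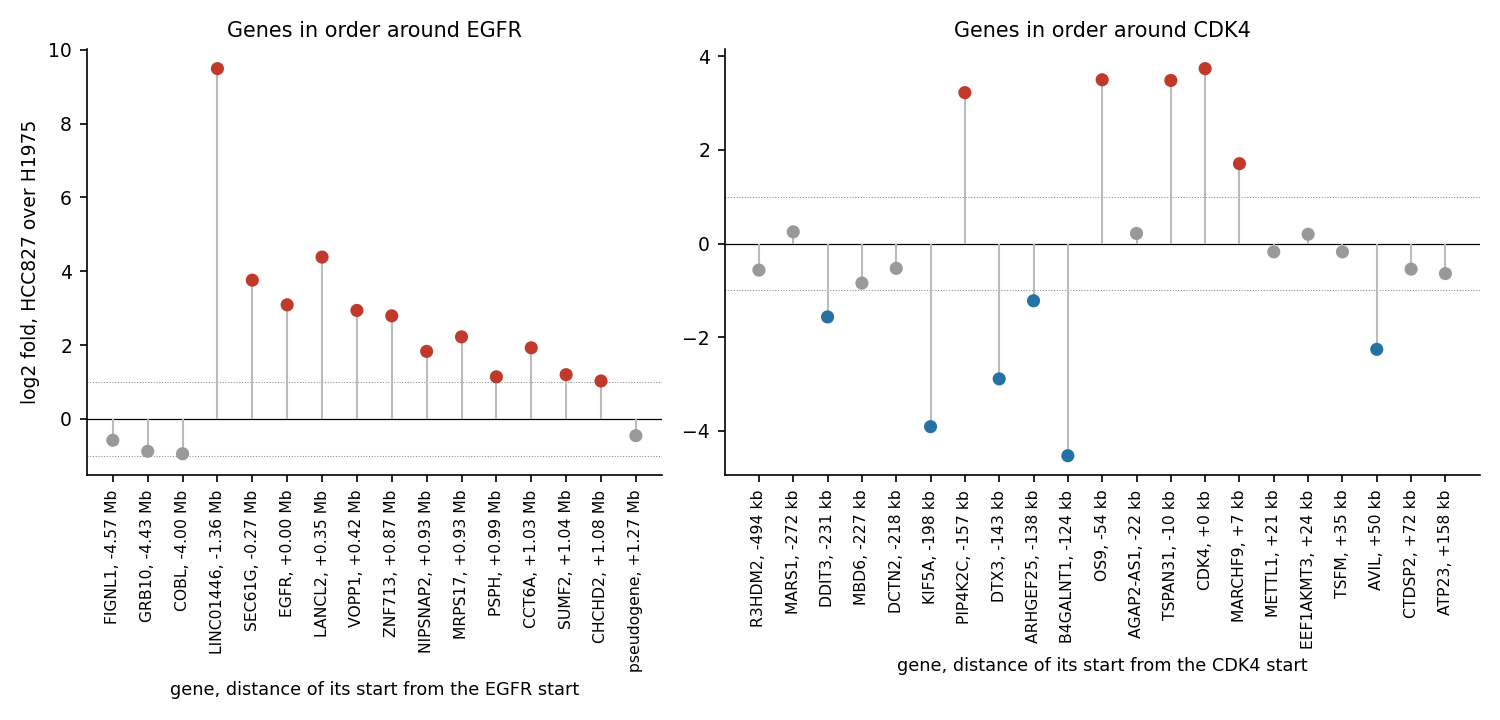
Log2 fold of scaled CPM, HCC827 over H1975, of each gene considered within 5 Mb of EGFR (left) and within 500 kb of CDK4 (right), in chromosome order, with the distance of its start; dotted lines mark 2-fold, and LINC01446, at 0 counts in H1975, is drawn at a fitted fold that depends on the prior count. All 11 genes from SEC61G to CHCHD2 are above the upper dotted line, while around CDK4 high and low genes alternate.

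Genes that control entry into the cell cycle and the stress response were more often higher in HCC827. Of 26 considered, 9 were at least 2-fold higher there, CDK4 among them, and 2 in H1975, beside 13.9% and 12.9% of all genes considered, with a median of 0.51. Library totals gave 7 and 3, and GC centring 8 and 2 with a median of 0.28. CDKN2A, the gene of the CDK4 inhibitor p16, was at 188 CPM in HCC827, 41.7 in H1975 and 0 counts in A549 (2.18), and its neighbour MTAP at 161, 60.4 and 10.4 CPM (1.42). BTG2 (2.73), an antiproliferative gene, SESN1 (1.06) and TP63 (2.64) were higher in HCC827. CDKN1A, the gene of the cell cycle inhibitor p21, was at 13.6 CPM in HCC827, 47.2 in H1975 and 58.7 in A549 (-1.79), and the stress cytokine GDF15 at 19.4, 42.9 and 23.4 CPM (-1.15). RB1 (0.76), CDK6 (0.75) and MDM2 (0.46) were under 2-fold.

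Replication and mitosis genes were mostly under 2-fold, with a median shifted toward H1975. Of 25, all considered, 24 were under 2-fold, with a median of -0.48 (-0.38 with GC centring). That median lay near the 0.25 quantile of all genes considered, -0.49. MKI67, a marker of cycling cells, was at 658 CPM in HCC827, 1180.5 in H1975 and 1269.6 in A549 (-0.84), TOP2A at 890, 747 and 948 CPM (0.25) and CCNB1 at 187, 179 and 194 CPM (0.06). The gene past 2-fold was MCM5, a subunit of the replicative helicase, at -1.01, which was under 2-fold with DESeq2 size factors.

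The lung lineage list leaned to HCC827, with 11 of 16 genes considered at least 2-fold higher there and 1 in H1975, beside 13.9% and 12.9% of all genes, and a median of 2.78. SFTPB, SFTPA1, SFTPA2, SFTA2, FOXA1, SOX2, TP63 and HOPX were under 5 CPM in H1975 and entered only through HCC827. FOXA2, under 5 CPM in HCC827, entered only through H1975. The directions of these genes follow from the filter, and the median partly rests on them. SFTPB, for surfactant protein B, was at 120 CPM in HCC827, 0.145 in H1975 and 0 counts in A549 (9.53, 8.99 to 10.4999). SFTPA1 was at 79.3, 0.0634 and 0 CPM (9.95, 9.24 to 11.60) and SFTPA2 at 59.6, 0.462 and 0 CPM (6.96, 6.62 to 7.44). These 2 genes are near-identical and may share reads, so the split between them is uncertain. SFTA2 was at 26.1 CPM in HCC827 and 0 counts in H1975, at least 962-fold higher. NAPSA, the aspartic protease that trims surfactant protein B, was at 134 CPM in HCC827, 7.48 in H1975 and 1.02 in A549 (4.16). SFTPC was at 0 counts in HCC827 and H1975.

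The transcription factors of this list did not move as a block. FOXA1 was at 111 CPM in HCC827, 0.716 in H1975 and 11.7 in A549 (7.24), whereas its paralog FOXA2 was at 2.78, 33.9 and 55.1 CPM (-3.60). SOX2 was at 47.7, 0.172 and 2.66 CPM (7.98), TP63 at 17.4, 2.79 and 1.15 CPM (2.64) and HOPX at 8.06, 1.05 and 0 CPM (2.92). LAMP3 (1.49) and CEBPD (1.40) were higher in HCC827. NKX2-1 and its neighbour SFTA3 (72.0 and 39.4 CPM, 0.87), ABCA3 (-0.36) and LPCAT1 (0.25), which serve surfactant lipids, were under 2-fold.

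The promoters of both surfactant protein A genes are shown because their transcripts differed widely while NKX2-1, a known activator of surfactant genes, did not reach 2-fold. Each run is the 250 bases before the gene start in RefSeq (GRCh38.p14), on the gene's strand, at chr10:79610689-79610938 (plus) for SFTPA1 and chr10:79560408-79560657 (minus) for SFTPA2. Capitals mark the NKX2-1 core letters CTCAAG and the forkhead letters TGTTTAC, searched on both strands. The forkhead match lies on the other strand and reads GTAAACA here.
SFTPA1: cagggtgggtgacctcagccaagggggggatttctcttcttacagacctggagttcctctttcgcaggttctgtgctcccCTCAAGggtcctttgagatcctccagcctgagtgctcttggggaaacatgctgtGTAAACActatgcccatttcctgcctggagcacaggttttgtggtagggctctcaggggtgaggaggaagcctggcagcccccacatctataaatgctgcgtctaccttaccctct
SFTPA2: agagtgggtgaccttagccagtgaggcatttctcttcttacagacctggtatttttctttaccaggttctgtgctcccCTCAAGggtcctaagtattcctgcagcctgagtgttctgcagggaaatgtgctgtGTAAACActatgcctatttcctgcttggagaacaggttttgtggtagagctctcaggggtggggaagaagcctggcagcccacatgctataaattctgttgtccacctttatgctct
In both genes the first match begins 170 or 172 bases before the start and the second 116 or 117 bases before it. CTCAAG is found in 10.4% of 35116 RefSeq windows of this length and TGTTTAC in 2.98%. The 2 windows listed for SFTPB and a further window of SFTPA2 held neither. A match is a description of letters and not a binding site.

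Genes of gastrointestinal-type differentiation were low in H1975. All 6 considered of 22 listed were at least 2-fold higher in HCC827, with a median of 9.46, or 8.77 with the 3 genes at 0 counts in H1975 put at their lower bound. CEACAM6, a carcinoembryonic antigen-related adhesion molecule, was at 442 CPM in HCC827, 0.163 in H1975 and 25.03 in A549 (11.26, 10.74 to 12.16). Its relative CEACAM5 was at 49.8 CPM in HCC827 and 0 counts in H1975, at least 1833-fold higher. HNF4G, a nuclear receptor, was at 74.4, 0.272 and 1.51 CPM (8.01). The microvillus gene VIL1 was at 7.78 CPM in HCC827 and 0 counts in H1975, at least 286-fold higher. AGR2, a secretory-pathway disulfide isomerase, was at 40.1 CPM in HCC827, 3.38 in H1975 and 94.4 in A549 (3.56). HNF4A was at 0 counts in HCC827 and H1975 and at 27.1 CPM in A549.

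Mucins followed, with 6 of 8 considered at least 2-fold higher in HCC827, 0 in H1975 and a median of 4.06. Across all genes considered these shares were 13.9% and 12.9%. The membrane mucin MUC4 was at 413 CPM in HCC827, 6.72 in H1975 and 0.0662 in A549 (5.94), and MUC16, the CA125 antigen, at 1517, 554 and 8.24 CPM (1.45). The gel-forming MUC5B was at 36.9, 0.879 and 2276 CPM (5.36). MUC13 was at 33.5 CPM in HCC827 and 0 counts in H1975, at least 1231-fold higher. MUC1 (93.3 and 99.3 CPM, -0.09) and MUC20 (-0.61) were under 2-fold.

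Epithelial junction genes were much alike in level. Of 23 considered, 20 were under 2-fold, 3 were higher in HCC827 and 0 in H1975, with a median of -0.01 (0.14 with GC centring). The 3 were the claudin genes CLDN1 (1.47) and CLDN3 (1.25) and the epithelial transcription factor ELF3 (408 against 171 CPM, 1.25). ESRP1 and ESRP2, epithelial splicing regulators, were at 287 and 248 CPM (0.21) and at 127.3 and 126.2 CPM (0.01). GRHL2, a transcription factor of epithelial junctions, was at 75.2 and 83.3 CPM (-0.15). A549 set itself apart here, with GRHL2 at 0 counts and ESRP2 at 0.151 CPM. Of 7 keratins considered, 2 were higher in HCC827, KRT4 (55.7 against 0.516 CPM, 6.71) and KRT15 (1.09). KRT7 (-0.85), KRT8 (0.21), KRT18 (0.69) and KRT19 (-0.61) were under 2-fold.

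Mesenchymal genes went both ways. Of 14 considered, 4 were at least 2-fold higher in HCC827 and 6 in H1975, with a median of -0.79. LOX, a collagen cross-linking enzyme, was at 4.26, 47.5 and 1.02 CPM (-3.47), and SNAI1, a repressor of E-cadherin, at 4.89, 30.5 and 5.50 CPM (-2.64). VIM, for vimentin, was at 150, 358 and 923 CPM (-1.25), and SPARC at 31.5, 119 and 0.568 CPM (-1.92). ZEB1, another repressor of E-cadherin, was higher in HCC827, at 8.86 CPM against 2.55 in H1975 and 31.7 in A549 (1.79). CDH2, for N-cadherin, and TWIST2 were at 5.67 and 10.3 CPM in HCC827 and 0 counts in H1975, at least 209-fold and 380-fold higher.

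Matrix and adhesion genes went in both directions. Of 27 collagens, laminins and integrins considered, 9 were at least 2-fold higher in each line, with a median of 0.03. LAMB1, a laminin beta chain of basement membranes, was at 508 CPM in HCC827, 12.5 in H1975 and 567 in A549 (5.34). The basement membrane collagen genes COL4A2 (46.0 against 0.317 CPM, 7.11) and COL4A1 (8.41 against 0.879 CPM, 3.23) and the hemidesmosome collagen gene COL17A1 (147 against 15.8 CPM, 3.22) were higher in HCC827. COL7A1, the anchoring fibril collagen, was at 10.3 CPM in HCC827, 163 in H1975 and 421 in A549 (-3.98). COL5A1 (-2.41), the fibronectin receptor subunit ITGA5 (98.5 against 357 CPM, -1.86) and ITGB3 (-2.62) were higher in H1975. Centring folds within GC classes left 9 higher in HCC827 and 5 in H1975, with a median of -0.14. Of 10 plasminogen and metalloproteinase genes, 2 were higher in HCC827 (1 with GC centring) and 4 in H1975. The urokinase gene PLAU was at 259 and 646 CPM (-1.32), and MMP14, a membrane-bound metalloproteinase, at 1.54 and 30.8 CPM (-4.31). SERPINE2, a protease inhibitor gene, was at 10.0 CPM in HCC827 and 0 counts in H1975, at least 370-fold higher.

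Antigen presentation leaned to H1975. Of 22 considered genes, 12 were at least 2-fold higher in H1975 and 1 in HCC827, beside 12.9% and 13.9% of all genes considered, with a median of -1.20. With folds centred within GC classes the counts were 10 and 1 and the median was -0.95, under 2-fold. The folds of largest size on the list were in MHC class II, which presents peptides to CD4 T cells. CIITA, the transactivator on which class II genes depend, was at 1.86 CPM in HCC827, 49.6 in H1975 and 0.303 in A549 (-4.72, -4.93 to -4.55). CD74, the invariant chain, was at 0.406, 206 and 0 CPM (-8.93, -9.41 to -8.59). HLA-DRA was at 0.151, 25.01 and 0 CPM (-7.22, -8.10 to -6.72), and HLA-DMA, a peptide loading subunit, at 3.38, 20.3 and 1.75 CPM (-2.58). HLA-DPA1 and HLA-DPB1 were at 10.49 and 5.17 CPM in H1975 and 0 counts in HCC827, at least 439-fold and 217-fold higher in H1975. The polymorphic HLA-DRB1 went the other way, at 3.30 CPM in HCC827 and 0.0543 in H1975, under the level for genes considered. Reads of polymorphic HLA genes depend on how well the carried alleles match the reference.

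Class I differed less. HLA-B was at 99.6 CPM in HCC827, 261 in H1975 and 7.95 in A549 (-1.39), while HLA-C (182, 133 and 55.5 CPM, 0.46) and the light chain gene B2M (534, 647 and 222 CPM, -0.28) were under 2-fold. NLRC5, the class I transactivator, was at 52.2 and 122 CPM (-1.22). The trimming peptidases split, with ERAP2 at 9.34 and 66.7 CPM (-2.83) and ERAP1 at 78.5 and 31.9 CPM (1.30).

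The promoters of CD74, HLA-DMA and HLA-DMB are shown because class II genes share a module whose Y box is a CCAAT box. They lie at chr5:150412911-150413160, chr6:32953098-32953347 and chr6:32941029-32941278, all on the minus strand, with the same source and length as above. Capitals mark ATTGG or, on the other strand, CCAAT.
CD74: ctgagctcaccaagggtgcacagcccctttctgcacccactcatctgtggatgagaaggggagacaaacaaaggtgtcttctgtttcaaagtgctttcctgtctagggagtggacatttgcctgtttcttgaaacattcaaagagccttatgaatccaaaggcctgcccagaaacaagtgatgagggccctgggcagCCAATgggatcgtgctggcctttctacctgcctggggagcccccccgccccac
HLA-DMA: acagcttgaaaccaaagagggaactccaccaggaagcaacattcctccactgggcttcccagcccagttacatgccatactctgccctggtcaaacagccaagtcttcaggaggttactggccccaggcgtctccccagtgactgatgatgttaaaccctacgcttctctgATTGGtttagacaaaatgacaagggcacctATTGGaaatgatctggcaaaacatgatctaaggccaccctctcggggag
HLA-DMB: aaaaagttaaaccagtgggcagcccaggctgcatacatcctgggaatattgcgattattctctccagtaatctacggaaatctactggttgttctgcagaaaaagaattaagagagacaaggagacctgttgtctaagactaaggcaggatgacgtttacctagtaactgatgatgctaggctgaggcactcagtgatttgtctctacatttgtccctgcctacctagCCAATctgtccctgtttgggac
The match begins 53 bases before the start in CD74, 79 and 49 bases before it in HLA-DMA and 22 bases before it in HLA-DMB. On the printed strand the match reads CCAAT in CD74 and HLA-DMB and ATTGG in HLA-DMA. These letters are common, occurring in 32.0% of the 35116 windows. A match describes letters only, and whether any of them is the Y box of the class II module was not tested. HLA-DMB itself was at 4.09 CPM in HCC827 and 10.1 in H1975 (-1.30).

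Interferon-stimulated genes also leaned to H1975. Of 27 considered, 14 were at least 2-fold higher in H1975 and 1 in HCC827, beside 12.9% and 13.9% of all genes considered. The median was -1.08, and library totals gave counts of 16 and 1. RSAD2, the antiviral protein viperin, was at 0.390 CPM in HCC827, 12.4 in H1975 and 0.0568 in A549 (-4.93). IFIT1, which binds foreign RNA, was at 15.1, 79.5 and 8.18 CPM (-2.39), and the oligoadenylate synthetase OAS2 at 8.26, 46.0 and 0.208 CPM (-2.47). IFI6 (-2.03), IFI27 (-1.72), BST2 (-1.56) and ISG15 (-1.08) had the same direction. DDX60 was the exception, at 341 CPM in HCC827, 121 in H1975 and 7.06 in A549 (1.499). Of the transducers of the interferon signal, those named here were under 2-fold, with STAT2 at 75.5 and 75.8 CPM (-0.01) and IRF9 at 25.3 and 24.6 CPM (0.04).

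Cytokines and chemokines leaned to HCC827, with 12 of 19 considered at least 2-fold higher there and 2 in H1975, and a median of 1.40. The all-gene shares were 13.9% and 12.9%. With folds centred within GC classes the counts were 11 and 4. CXCL5, a neutrophil-attracting chemokine, was at 134 CPM in HCC827, 5.24 in H1975 and 128 in A549 (4.67), CXCL1 at 66.8, 7.28 and 28.6 CPM (3.19) and CXCL8 at 65.1, 24.6 and 7.82 CPM (1.40). CXCL6 (4.41), CXCL3 (2.81) and CXCL2 (1.91) had the same direction, as did the chemokine genes CCL20 (21.99 against 1.72 CPM, 3.66) and CXCL16 (3.72) and the interleukin-1 genes IL1A (3.38) and IL1B (1.35). IL6 was at 1.01, and at 0.92 with library totals. IL11 (1.44 against 16.2 CPM, -3.47) and LIF were the 2 higher in H1975. Among 15 immune checkpoint and NKG2D ligand genes, 3 were higher in each line. CD274, for PD-L1, was at 29.2 CPM in HCC827, 40.7 in H1975 and 0.870 in A549 (-0.48). MICB, a ligand of NKG2D, was at 36.2 and 7.64 CPM (2.24), and NECTIN4, an adhesion molecule and antibody-drug target, at 4.55 and 29.6 CPM (-2.70).

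HOX genes, which encode positional identity, leaned to HCC827. Of the 10 considered of 39, 9 were at least 2-fold higher there and 0 in H1975, with a median of 6.47. The all-gene shares were 13.9% and 12.9%. HOXB7 was at 9.37 CPM in HCC827, 0 counts in H1975 and 20.1 CPM in A549, at least 345-fold higher. HOXA3 was at 36.8, 1.04 and 27.5 CPM (5.12). HOXA10 was under 2-fold, at 11.0 and 8.22 CPM (0.41).

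Signalling and metabolic lists were mixed. Their counts stand beside all-gene shares of 13.9% higher in HCC827 and 12.9% in H1975. Of 15 WNT genes considered, 4 were higher in HCC827 and 5 in H1975, among them WNT5A (5.05 against 0.0725 CPM, 5.83) and the extracellular inhibitor gene DKK1 (2.91 against 22.7 CPM, -2.95). Of 19 BMP, TGF-beta and NOTCH genes, 2 were higher in HCC827 and 8 in H1975, with a median of -0.58. With folds centred within GC classes these were 3, 7 and -0.25. NOTCH3 was at 52.5 and 150 CPM (-1.52), the NOTCH ligand gene JAG1 at 37.7 and 88.3 CPM (-1.23) and BMP2 at 3.16 and 15.7 CPM (-2.31). Of 23 glycolysis and hypoxia genes, 2 were higher in HCC827 and 8 in H1975, with a median of -0.62. CA12, a carbonic anhydrase, was at 1.43 CPM in HCC827, 170 in H1975 and 1883 in A549 (-6.87, -7.11 to -6.68), and NDRG1 at 125, 606 and 141 CPM (-2.27). The glucose transporter gene SLC2A3 (17.6 against 62.9 CPM, -1.83) and PFKP (119 against 397 CPM, -1.74) were higher in H1975. LDHB (1.25) and EGLN3 (2.39), an oxygen-sensing hydroxylase gene, were higher in HCC827, and SLC2A1 (-0.41), LDHA (-0.75) and VEGFA (-0.14) were under 2-fold.

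HMOX1, for heme oxygenase, was at 9.58 CPM in HCC827, 315 in H1975 and 254 in A549 (-5.04, -5.12 to -4.96). Of the 17 NRF2 targets considered, antioxidant genes with HMOX1 among them, 3 were higher in HCC827 and 4 in H1975, with a median of 0.28. The all-gene shares were 13.9% and 12.9%. NQO1 (71.3, 252 and 1521 CPM, -1.82) was higher in H1975. ABCC2, an efflux pump, was higher in HCC827 (22.5, 2.66 and 977 CPM, 3.07). With library totals or GC centring 1 gene was left higher in HCC827, since TXNRD1 (1.08) and UGDH (1.02) lie near 2-fold. SLC7A11 (0.46), GCLC (0.28) and GCLM (0.89) were under 2-fold. The levels of all 23 listed targets summed to 2801 CPM in HCC827, 2985 in H1975 and 25729 in A549, while HMOX1 itself was highest in H1975.

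Of 15 xenobiotic enzyme and efflux genes, 5 were higher in HCC827 and 3 in H1975. ALDH1A3, an aldehyde dehydrogenase that makes retinoic acid, was at 257 CPM in HCC827, 41.6 in H1975 and 9.84 in A549 (2.63), and CYP1B1, a cytochrome P450, at 21.3, 117 and 115 CPM (-2.46). Sterol and fatty acid synthesis genes were near level, 17 of 23 under 2-fold. The squalene oxidase gene SQLE was at 44.6 and 133 CPM (-1.58). Of 21 serine, glutamine and amino acid genes, 5 were higher in HCC827 and 1 in H1975 (0 with DESeq2 size factors or GC centring). BCAT1, which transaminates branched-chain amino acids, was at 60.4 and 1.33 CPM (5.49), the glutamine synthetase gene GLUL at 109 and 8.81 CPM (3.62) and IDO1, which breaks down tryptophan, at 19.6 and 0.752 CPM (4.67). All 13 mitochondrially encoded mRNAs were under 2-fold, with a median of 0.15, and of -0.06 with GC centring.

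**Figure D4:**
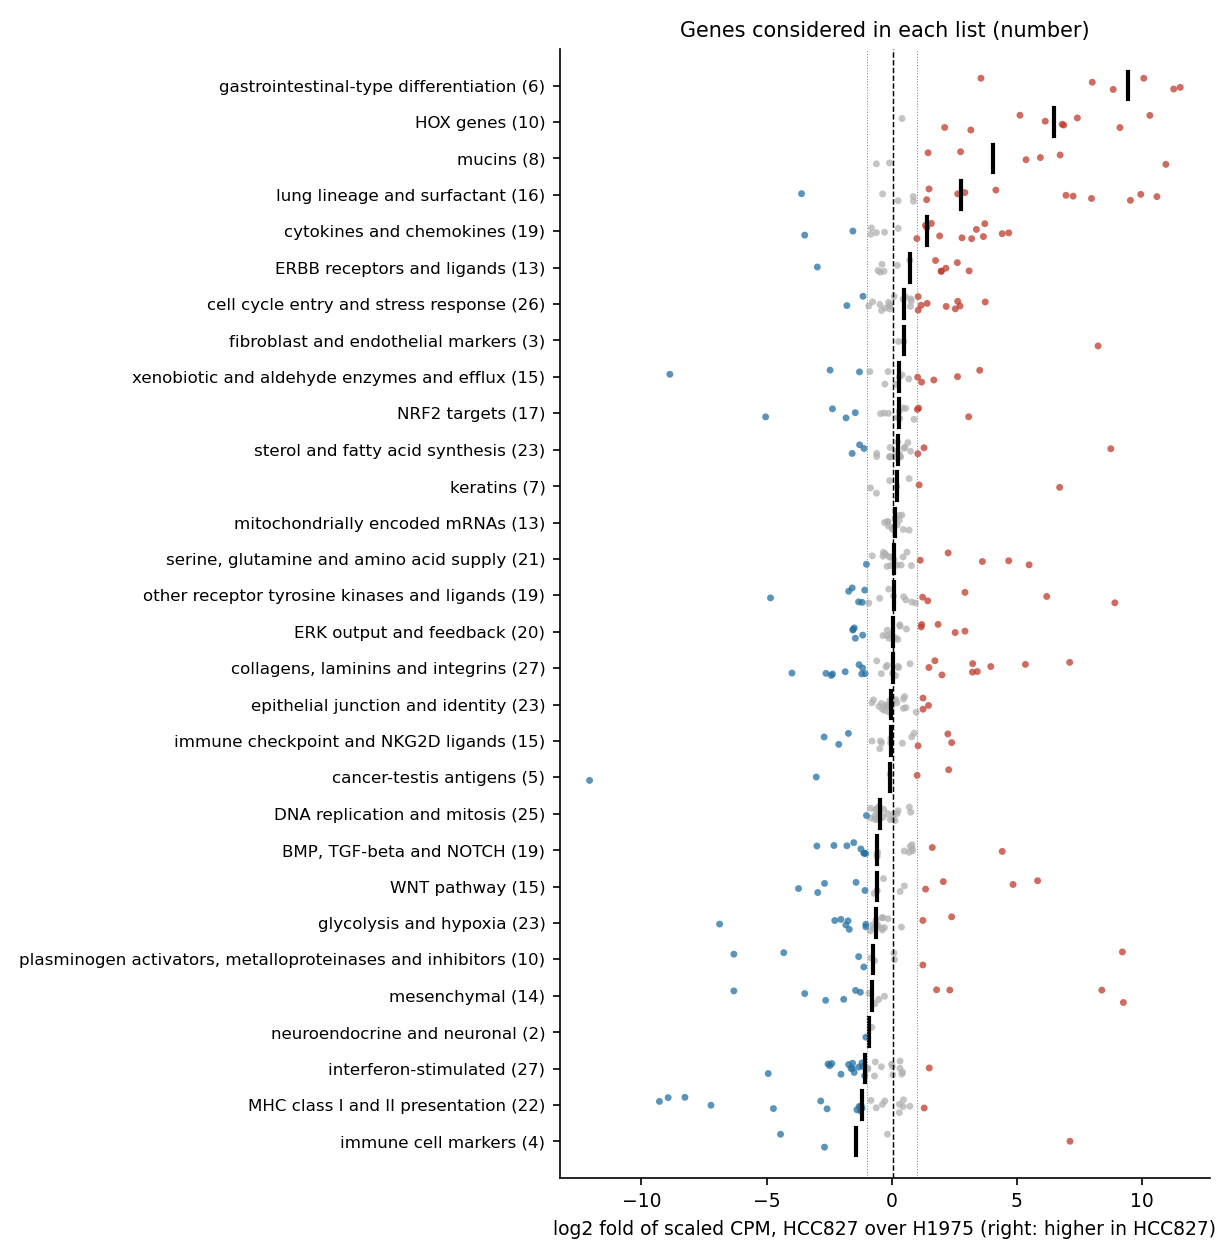
Log2 fold, HCC827 over H1975, of every gene considered in each of 30 gene lists (number of genes in parentheses); each point is a gene, the thick bar the list median, the dashed line the median of all genes considered (0.06) and the dotted lines 2-fold. Gastrointestinal-type, HOX, mucin and lung lineage genes lie to the right, MHC and interferon-stimulated genes to the left, and epithelial junction and replication genes near the centre.

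Some genes were on in a single line of the pair. At 5 CPM or more in HCC827 and 3 counts or fewer in H1975 there were 141 genes (1.12% of genes considered), 114 of them protein-coding and 128 at 0 counts in H1975. The reverse held for 56 genes (0.444%), 42 protein-coding and 52 at 0 in HCC827. Of the 141, 61 reached 5 CPM in A549 and 26 had 3 counts or fewer there. Of the 56, 11 reached 5 CPM in A549 and 25 had 3 counts or fewer. The shares of all genes considered at these A549 levels were not counted. These numbers are therefore not read as a likeness of either line to A549.

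Of the 15 protein-coding genes with the largest folds toward HCC827, 13 were at 0 counts in H1975. BEX3, a small adaptor protein gene, was at 101 CPM in HCC827 and 65.4 in A549, at least 3707-fold above H1975. STK26, a kinase, was at 75.5 and 31.3 CPM (at least 2780-fold), the scaffold gene MPDZ at 71.8 and 113 CPM (at least 2642-fold) and IGF2BP1, an oncofetal RNA-binding protein gene, at 66.9 and 175 CPM (at least 2462-fold). TSPYL5, at 56.9 and 42.5 CPM, was at least 2096-fold higher, and F5, for coagulation factor V, at 56.6 and 0.416 CPM, at least 2082-fold. TOX3, DSCAML1, CEACAM5, KCNK1, DSC3 and ST8SIA4 were at least 1943-fold, 1880-fold, 1833-fold, 1550-fold, 1500-fold and 1447-fold higher. Not at 0 counts in H1975 were CEACAM6 and SGPP2, a sphingosine-phosphate phosphatase gene with 2 counts in H1975 (11.43, 10.53 to 15.43).

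All 15 with the largest folds toward H1975 were at 0 counts in HCC827. MT1E, a metallothionein, was at 98.7 CPM in H1975 and 0 counts in A549, at least 4135-fold above HCC827. CT45A1, a cancer-testis antigen gene on the X chromosome, was at 72.7 CPM in H1975 and 0.549 in A549, at least 3043-fold higher. Its near-identical relatives CT45A2, CT45A7, CT45A8 and CT45A9 were at least 1796-fold, 1029-fold, 1026-fold and 923-fold higher, and the split of reads among them is uncertain. The transcription factor gene KLF12 (39.8 CPM, at least 1667-fold), the imprinted gene SNRPN (35.1 CPM, at least 1468-fold), ANKRD33 (at least 1232-fold), GPAT2 (at least 1024-fold) and the secreted glutathione peroxidase gene GPX3 (23.7 CPM, at least 991-fold) followed. CMBL, OLFM1 and the zinc finger genes ZNF90 and ZNF556 were at least 909-fold, 894-fold, 1587-fold and 866-fold higher. Of 5 cancer-testis antigens considered among 28 listed, 2 were higher in each line. PRAME was at 10.4 CPM in HCC827, 84.1 in H1975 and 140 in A549 (-3.01). XAGE1A, at 1.01, was under 2-fold with library totals and shares reads with its copy XAGE1B (-0.06).

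Folds were not spread evenly along the chromosomes. Over 288 bins of 10 Mb with at least 10 genes considered, the median of bin medians was 0.15. In 19 bins the median was at least 2-fold higher in HCC827 and in 4 at least 2-fold higher in H1975. With folds centred within GC classes these became 11 and 6. Of the 19, 6 lay side by side on chromosome 1 between 40 and 100 Mb, with medians of 1.37, 1.37, 1.33, 1.57, 1.77 and 1.56. Their values centred on GC class were 1.14 to 1.56. From 80 to 90 Mb 26 of 30 genes were at least 2-fold higher in HCC827 and 0 in H1975, and from 40 to 50 Mb 71 of 93 against 3.

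The abundant genes of these bins have varied roles. RPL5, a protein of the large ribosomal subunit, was at 1321 CPM in HCC827, 314 in H1975 and 360 in A549 (2.07), and FUBP1, a regulator of MYC transcription, at 527, 103 and 244 CPM (2.35). USP24, a deubiquitinase, was at 407, 91.3 and 134 CPM (2.16), and the kinase gene PKN2 at 304, 84.4 and 75.2 CPM (1.85). DDAH1, which degrades methylarginines, was at 287, 13.1 and 13.9 CPM (4.45). ARHGAP29 went the other way, at 110, 442 and 107 CPM (-2.003).

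Elsewhere, the bin of 70 to 80 Mb on chromosome 8 had a median of 1.88 over 25 genes, with RPL7 at 2303 CPM in HCC827, 624 in H1975 and 483 in A549 (1.88) and the RNA-binding protein gene STAU2 at 288, 53.2 and 67.0 CPM (2.43). From 130 to 140 Mb the median was 1.76 over 11 genes, with the potassium channel gene KCNQ3 at 291, 2.86 and 5.34 CPM (6.66) and NDRG1 in the other direction. The EGFR bin, 50 to 60 Mb on chromosome 7, had a median of 1.88 over 16 genes. On the X chromosome the bin from 80 to 90 Mb had a median of 2.00 over 10 genes.

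Toward H1975, whole chromosome 22 had a median of -0.83 over 314 genes, beside 0.67 for chromosome 4 and -0.46 for chromosome 10. Genes of chromosome 22 have a median GC content of 56.3%, and the 2 bins from 10 to 30 Mb had medians of -1.01 and -1.05 and of -0.93 and -0.85 when centred on GC class. NF2, for the tumour suppressor merlin, was at 84.5 CPM in HCC827, 260 in H1975 and 54.7 in A549 (-1.62), MIF, a cytokine, at 169, 432 and 202 CPM (-1.36) and BCR at 91.4, 207 and 60.6 CPM (-1.18).

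The lowest bin was 20 to 30 Mb on chromosome 19, with a median of -1.67 over 46 genes and of -2.02 when centred on GC class. It holds a cluster of KRAB-type zinc finger genes. All 25 genes there with a symbol starting in ZNF, a group chosen after its values were seen, were at least 2-fold higher in H1975, with a median of -1.70, and 17 were under 1 CPM in A549. ZNF714 was at 2.74 CPM in HCC827, 132 in H1975 and 14.6 in A549 (-5.59), ZNF91 at 35.7, 112 and 0.189 CPM (-1.65) and ZNF43 at 26.8, 118 and 2.86 CPM (-2.13). Over all 442 ZNF genes considered the median was -0.34, with 116 at least 2-fold higher in H1975 and 28 in HCC827. These genes are similar in sequence and may share reads.

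**Figure D5:**
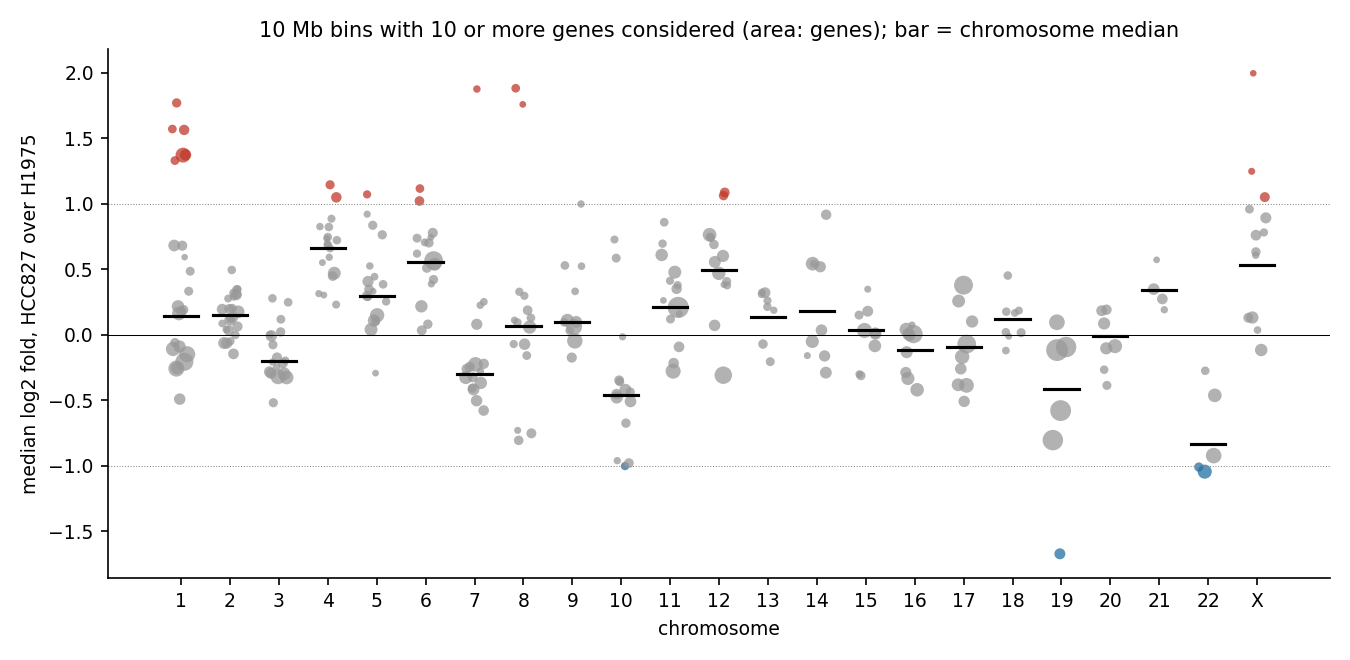
Median log2 fold, HCC827 over H1975, of each 10 Mb bin with at least 10 genes considered, by chromosome; point area grows with the number of genes, bars are chromosome medians and dotted lines mark 2-fold. Chromosomes 1, 7, 8 and X hold bins at 1.33 or more, and chromosome 19 holds the lowest bin at -1.67.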

How the data were processed

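The authors deposited raw, whole-number counts of reads for 60671 Ensembl genes in 6 libraries, per the file header and values. Trizol extraction and an mRNA library kit are named per the labels' protocols, and bcl2fastq 2.20 and GRCh38 per the submitters' processing notes. The aligner, counter and strand setting were not stated in what was used here, so overlapping and near-identical genes may share reads. Of the genes, 42020 had a symbol and 58453 a GENCODE release 29 position.

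Counts were scaled by TMM over the 3 DMSO libraries (edgeR 4.0.16, R 4.3.3; factors 0.990 for HCC827, 1.055 for H1975 and 0.957 for A549). Log2 folds used a prior count of 2. Calls were at 2-fold, among genes reaching 5 CPM in either library. A library at 0 counts was given a floor of 3 counts. DESeq2 1.42.0 gave alternative size factors. The scripts were tested on simulated data. Members and lists were chosen with earlier results of these data known. The text names the 15 protein-coding genes with the largest fold in each direction at 20 CPM or more, members of 30 lists, 12 fixed genes, neighbours of EGFR and up to 6 abundant genes of extreme bins. Genes of the CDK4 neighbourhood and the added lists were chosen after their values were seen. A check of promoter CpG content is void, because only 68.4% and 64.3% of the protein-coding genes on in HCC827 or H1975 alone had a RefSeq promoter. RefSeq promoters of all genes printed were matched by symbol. Some genes are not reported here.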

Additional observations from a re-analysis of the deposited data

How the results depend on the processing

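Library totals, DESeq2 size factors, TMM over the 2 libraries alone, leaving out mitochondrial genes and a prior count of 5 gave 1549 to 1780 genes at least 2-fold higher in HCC827 and 1609 to 1860 in H1975. Library totals made 45.4% of the differing genes higher in HCC827 instead of 51.8%, shifted folds by -0.09 and moved the median of all genes considered from 0.06 to -0.04. List medians near 0 changed sign with them: other receptor tyrosine kinases from 0.07 to -0.02, ERK output from 0.06 to -0.04 and collagens, laminins and integrins from 0.03 to -0.06. So did that of serine, glutamine and amino acid genes, from 0.08 to -0.01. A minimum of 1 CPM gave 2562 and 2622 genes, no filter 6344 and 6645, a 4-fold threshold 691 and 597, and protein-coding genes alone 1546 and 1432. Genes on in a single line numbered 326 and 185 at 1 CPM. Bins of 5 Mb gave 31 bins higher in HCC827 and 8 in H1975, of 433. Centring within GC classes, added after seeing the data, gave 1591 and 1567 genes, and 11 and 6 bins. It turned the medians of mitochondrial mRNAs (0.15 to -0.06), epithelial junction genes (-0.01 to 0.14) and collagens, laminins and integrins (0.03 to -0.14). The median of immune checkpoint and NKG2D ligand genes turned as well (-0.04 to 0.07). The cause was not tested beyond what each setting changes by construction. A check of single genes held 582 genes, 314 of them past 2-fold. Of these 314, 10 were under 2-fold with library totals and 24 with GC centring. None changed sign, but the largest shifts with these 2 settings were 0.09 and 0.34 log2 units. Shifts of that size cannot turn a fold past 2-fold. The prior count of 5 put 1 gene under 2-fold, with a largest shift of 1.32 log2 units. It lowered the medians of gastrointestinal-type genes from 9.46 to 8.32 and of HOX genes from 6.47 to 6.06. A larger prior count draws folds toward 0 by construction. The lack of sign changes therefore tests nothing. Genes near the 3-count floor are limited by depth. No paired analysis was possible because each line has 1 DMSO library and the labels give no replicate numbers.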

Other observations

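Lists of further genes, chosen after the values were seen, held other differences between the 2 lines. Of 25 germline and meiosis genes listed, 10 were considered. Of these, 8 were at least 2-fold higher in H1975 and 1 in HCC827, beside 12.9% and 13.9% of all genes considered. The median log2 fold was -7.00. All 8 were under 5 CPM in HCC827 and entered only through H1975, and the 1 only through HCC827. Their directions and the median therefore follow from the filter and the choice of genes. Of the 25, 10 were at 0 counts in HCC827 and 8 in H1975. TDRD9, a helicase of the germline piRNA pathway, was at 0.358 CPM in HCC827, 240 in H1975 and 0 in A549, and the meiotic cohesin gene SMC1B at 3.49, 78.0 and 0.237 CPM. SYCP2, of the synaptonemal complex, was at 3.30, 28.99 and 1.91 CPM. BRDT, a testis bromodomain gene, was the exception, at 28.7 CPM in HCC827 and 0 counts in H1975 and A549, at least 1056-fold higher in HCC827. Of 5 metallothioneins considered, 4 were higher in H1975, with MT2A at 109, 347 and 42.7 CPM (-1.67) beside MT1E. The MT1 genes are near-identical, so the split among them is uncertain.

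Of 10 imprinted genes considered, 6 were at least 2-fold higher in H1975 and 2 in HCC827, beside 12.9% and 13.9% of all genes considered. Their median was -2.26. PEG10 was at 89.6 CPM in HCC827, 1347 in H1975 and 345 in A549 (-3.91) and its neighbour SGCE at 9.77, 95.7 and 56.0 CPM (-3.29). SNRPN, PEG3 and KCNQ1OT1 were at 0 counts in HCC827 and at 35.1, 7.58 and 13.0 CPM in H1975, a difference of at least 1468-fold, 317-fold and 545-fold. PLAGL1 was at 35.1 CPM in HCC827, 0 counts in H1975 and 29.6 CPM in A549, at least 1291-fold higher in HCC827. Of 22 cytosolic ribosomal protein genes, 17 were under 2-fold and 5 higher in HCC827, with a median of 0.51. RPL5, of the 5, lies on chromosome 1, and RPL7 on chromosome 8.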
